A study of Mus musculus with 2 samples.

Results

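The 164 annotated antisense RNA genes described here are the genes of type antisense, as that type stands in the deposited annotation, that held at least 10 long reads summed over both libraries. They come from 2959 antisense genes in the GENCODE M21 annotation, of which 1043 had at least 1 read, and from 18534 annotated genes of any type with a read. These genes were chosen by their summed read number, so their levels are given as a description without a test. A list of 11 well-known non-coding genes was to be left out, and 0 of those are of type antisense. At the lower edge 19 genes had exactly 10 reads, among them Emx2os with 5 in each library, and 16 genes just outside had 9, among them Kcnq1ot1, the imprinted transcript of the Kcnq1 locus, with 8 reads in replicate 2 and 1 in replicate 1.

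The mice were B6CASTF1/J, an F1 hybrid of laboratory and castaneus-derived strains, 18 to 20 months of age, and 2 libraries were made from their left cerebral cortex, each with 2 µg of total RNA. Both libraries belong to 1 group with the same donor entry and are called replicate 2 and replicate 1 after their labels. No label gives a treatment, a genotype contrast or separate animals. Their spread may thus be technical, and every test between them covers counting error only and compares the libraries as sequenced. The sex field reads female and the free text reads male. The Y-linked genes Ddx3y, Eif2s3y, Kdm5d and Uty had 0 reads in both libraries, and Xist had 29 reads in replicate 2 and 34 in replicate 1.

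Reads on annotated genes numbered 679147 in replicate 2 and 774629 in replicate 1. Levels are in CPM, reads scaled to 1000000 of these totals, and a count of 0 allows a level of up to 4.42 CPM in replicate 2 and 3.87 CPM in replicate 1 (3 counts). The cortical neuron markers Slc17a7 (661 and 885 reads, replicate 2 then replicate 1) and Tbr1 (72 and 95) were present, as were markers of astrocytes (Aldoc, 1704 and 1836) and oligodendrocytes (Mbp, 862 and 1154). Folr1 of the choroid plexus and Gbx2 of the thalamus had 0 reads in both, and Ttr had 5 and 18.

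An antisense RNA gene is transcribed from the DNA strand opposite to another gene, so that the transcripts can share complementary sequence. Some are regulators in cis, such as Tsix, which represses Xist on the X chromosome, and Airn, whose transcription silences imprinted genes around Igf2r. Others start beside the promoter of a coding gene and run away from it, and for many no function is known. Strand thus decides to which gene a read is given. No source used here states how reads were oriented. Reads of an antisense gene and of its opposite partner can be told apart only by the strand the authors assigned and, for spliced reads, by the introns. An intron that matches an annotated intron of the antisense gene is therefore given separately below.

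For some of the single-exon models that led the read counts, the bases around the model's end are shown. Nearly all reads of those genes carry no intron. The leading single-exon models of Gm15337, Gm26724 and Gm29417 are not among those shown. Each line holds the last 10 bases of the model in lower case and the 20 bases that follow it on the genome in capitals, in the direction of the antisense strand (mm10).
Gm48091, both replicates, chr9:28920385-28920414, minus strand: ccactcattcAAAAAAAAAAAAAAAAAAAA
Gm20659, replicate 2, chr11:101972941-101972970, plus strand: attctgggccAAAAAAAAAAAAAAAAAAAA
Gm16185, both replicates, chr9:97090818-97090847, plus strand: ataatactgcAAAAAAAAAAAAAAAAAAAA
Gm43126, replicate 2, chr6:127128671-127128700, plus strand: ttagatgtttCTCCATCTTCAACCCTCACA
Gm43126, replicate 1, chr6:127128818-127128847, plus strand: ataattgtgcAAAAAAAAAAAAACAAAAAA
Gm16105, both replicates, chr10:81461539-81461568, plus strand: aggggaaattGGCTTTTGGGGTTTTTTGCT
For Gm48091, Gm20659 and Gm16185 the genome itself continues with 20 A. The Gm43126 model of replicate 1 was followed by 19 A and that of replicate 2, which ended upstream of it, by 5. Gm16105 had 0 A among its 20 bases.

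For contrast, the ends of 4 annotated spliced transcripts of these genes are shown as 50 bases up to the annotated end, with the polyadenylation hexamer (AATAAA or ATTAAA, the match nearest to the end) in capitals where the window holds it.
Snhg9-201, chr17:24719531-24719580, minus strand: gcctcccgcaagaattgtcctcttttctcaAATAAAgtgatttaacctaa
Sp3os-201, chr2:72988628-72988677, plus strand: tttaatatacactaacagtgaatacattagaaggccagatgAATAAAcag
Gt(ROSA)26Sor-201, chr6:113070398-113070447, minus strand: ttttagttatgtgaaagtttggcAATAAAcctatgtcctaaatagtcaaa
Gm13375-201, chr2:20969948-20969997, plus strand: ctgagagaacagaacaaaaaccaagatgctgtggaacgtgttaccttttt
The hexamer stood 20 bases before the annotated end in Snhg9-201, 9 in Sp3os-201 and 27 in Gt(ROSA)26Sor-201, and Gm13375-201 held none in this window. The 4 shown are examples and not the 4 with most reads. The spliced transcripts A330009N23Rik-202 (35 reads over both libraries), Dlx1as-202 (26) and Gt(ROSA)26Sor-203 (21) also held none. Of 42 annotated transcripts of these genes with at least 5 reads, spliced and single-exon together, 25 (59.5%) held it. The share was 42.0% for all 4205 annotated antisense transcripts and 50.2% for 58797 protein-coding transcripts.

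The antisense genes held 3045 reads in replicate 2 and 2150 in replicate 1, which is 0.448% and 0.278% of the reads on annotated genes. Their summed level was 4484 CPM in replicate 2 and 2776 CPM in replicate 1, a mean of 3630 ± 1208 CPM (SD, n = 2). The median gene had 18.0 reads over both libraries, 92 of 164 had under 20, and 20 had 50 or more. Genes with 100 reads or more numbered 5, and these held 24.8% of the reads in replicate 2 and 28.0% in replicate 1.

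None of these 5 genes had a read on its own annotated transcripts, and 4 of them were read almost entirely as a single unspliced model in each library. Gm15337 (chromosome 18, 39367038 to 39389425, minus strand) had 156 reads in replicate 2 and 128 in replicate 1. Of those, 153 and 124 were 1 single-exon model of 2342 nt in replicate 2 and 2352 nt in replicate 1 that touched 0 nt of the annotated Gm15337 exons and lay wholly on exons of Arhgap26 on the other strand. Arhgap26 itself had 8 and 16 reads, so the strand assigned to Gm15337 held more reads in both libraries.

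Gm48091 (chromosome 9, 28794296 to 28954347, minus strand) had 138 reads in replicate 2 and 141 in replicate 1. A model of 674 nt with the same ends in both libraries held 136 and 138 of them. It too lay wholly on the opposite exons, here of Opcml, a neuronal cell adhesion gene with 23 and 17 reads, and ended at the A run shown above. Gm20659 (chromosome 11, 101971143 to 101971859, plus strand) had 125 and 136 reads, every one on a single-exon model inside the exons of the phosphatase gene Dusp3, which had 62 and 89 reads. Only 211 nt of the 1302 nt of that model in replicate 2 were Gm20659 exon.

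Gm26724 (chromosome 17, 27201032 to 27203071, plus strand) had 150 reads in replicate 2 and 107 in replicate 1. All lay on a single-exon model of 7668 nt in replicate 2 and 4417 nt in replicate 1. These models covered 1650 nt of its own exons and part of the exons of Lemd2, a nuclear envelope gene with 44 and 56 reads. Gm44151 (chromosome 7, 3391596 to 3400926, minus strand) was the exception in form, with 186 reads in replicate 2 and 91 in replicate 1. A model with 1 intron (3391361 to 3394038) held 146 and 63 of them. That intron is not annotated for Gm44151 or on the other strand, and the model touched 0 nt of Gm44151 exons but 1018 nt (replicate 2) and 1017 nt (replicate 1) of the exons of Cacng8, an AMPA receptor auxiliary subunit. Cacng8 itself had 1 read in each library.

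**Figure D1:**
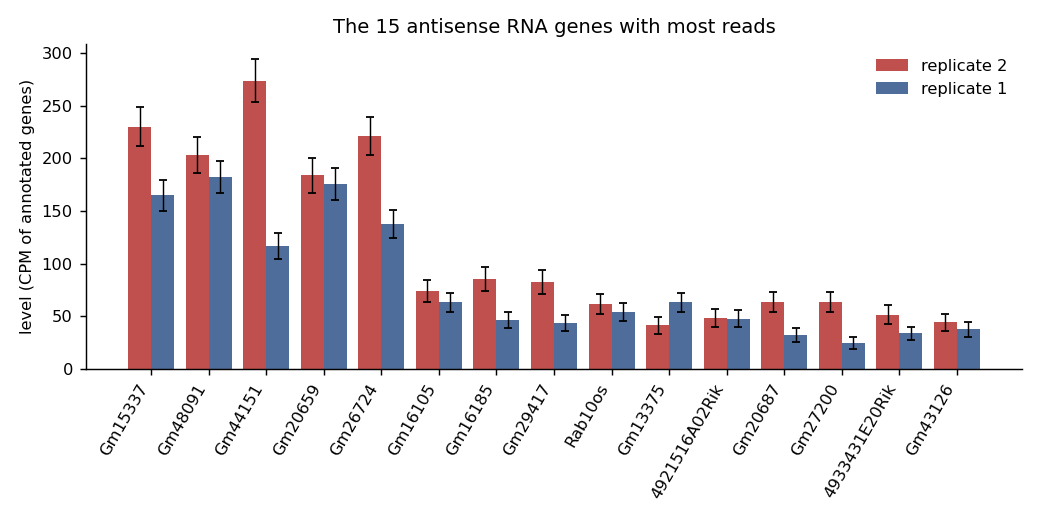
Level of the 15 antisense RNA genes with most reads, in CPM, with replicate 2 left of replicate 1; error bars are the counting error (square root of the read number), and CPM is relative to the reads of annotated genes. The 5 genes on the left stand at mean levels of 179 to 197 CPM and the next, Gm16105, at 68.4 CPM.

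After these came Gm16105, opposite the splicing regulator gene Celf5, with 50 and 49 reads in replicates 2 and 1, and Gm16185, opposite the mitochondrial carrier gene Slc25a36, with 58 and 36. Both were read as single-exon models only. Gm29417, opposite Cxxc5, had 56 and 34 reads on models that shared 1 nt with it, at its annotated start, and otherwise lay upstream. Gm43126 had 30 and 29 reads on models wholly within the exons of the cell cycle gene Ccnd2, and the models of 4921516A02Rik, with 29 reads in replicate 2 and 33 in replicate 1, lay wholly within those of the vitamin B6 kinase gene Pdxk.

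Over all 164 genes, spliced reads (models of more than 1 exon) made up 21.4% of the total in replicate 2, with 95% Wilson bounds of 20.0% and 22.9%. The share was 27.3% in replicate 1, with bounds of 25.5% and 29.2%. Long intergenic non-coding genes with at least 10 reads (lincRNA, 115 genes) stood at 30.1% and 35.1%, and protein-coding genes at 88.5% and 89.4%. Annotated transcripts held 10.8% of the antisense genes' reads in replicate 2 and 16.3% in replicate 1, against 39.5% and 45.2% for lincRNA genes. Of the 164 genes, 80 had 0 spliced reads and 111 had 0 reads on an annotated transcript. Intervals here and below cover counting error only.

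The reads were then sorted by where they lie, with a minimum of 50 nt on an exon. Spliced reads with an annotated intron of their own gene were 418 of 3045 (13.7%) in replicate 2 and 448 of 2150 (20.8%) in replicate 1. Their level was close in both, 615 CPM and 578 CPM, a ratio of 1.06. Single-exon reads on own exons were the largest class at 43.9% and 39.8%. A model with 50 nt on own exons was placed there even where it also lay on opposite exons. All reads of Gm20659 and Gm43126 are in this class, although their models lie within exons of Dusp3 and Ccnd2. Single-exon reads on opposite exons only made up 17.2% and 19.9%, and those on neither 17.4% and 13.0%. Spliced reads with no intron annotated for their own gene or on the opposite strand made up 7.52% and 6.47%, led by the chain of Gm44151. Both neither classes leave out of account the other annotated genes on the same strand.

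Few introns matched the opposite gene. Reads with an annotated intron of an opposite-strand gene numbered 6 in replicate 2 and 0 in replicate 1. Of the 1006 introns of all models of these genes, counted per model and library, 622 matched an annotated intron of their own gene and 8 one of the opposite strand.

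**Figure D2:**
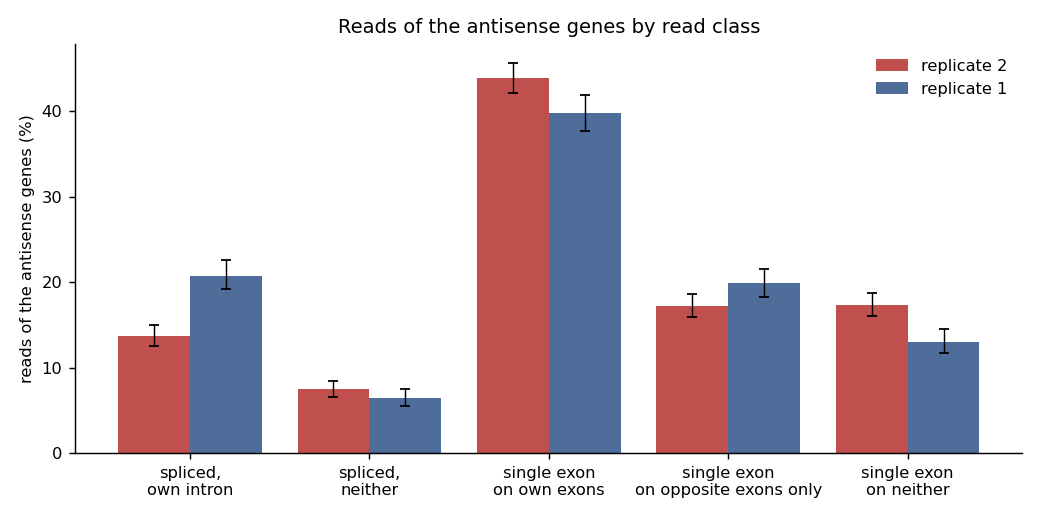
Percent of the antisense genes' reads in each read class, replicate 2 left of replicate 1; error bars are 95% Wilson intervals, and spliced reads with an opposite-strand intron (6 reads in replicate 2, 0 in replicate 1) are left out. Single-exon reads on own exons, which can also lie on opposite exons, lead in both libraries. Spliced reads with an own intron have the smaller share in replicate 2.

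The 20 bases after a single-exon model could be read where an annotated exon of either strand covers them, which holds for 40.2% of such reads in replicate 2 and 53.2% in replicate 1. Among these, 43.5% (replicate 2) and 51.4% (replicate 1) were followed by at least 12 A in 20 bases. Without the 5 genes with most reads the shares were 29.0% and 35.6%, and single-exon models of unannotated antisense loci gave 29.6% and 36.9%. Windows of 20 bases on the strand opposite protein-coding transcripts held 12 A or more in 1.07% of 7081152 cases. Of 16 genes outside chromosome 18 with such a model of at least 10 reads and a readable window, 8 had an A-rich window in at least 1 library. What part these A runs had in the read counts was not tested.

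In 41 antisense genes reads with an own intron were the largest class, and these genes had 517 reads in replicate 2 and 513 in replicate 1. Gm13375, a short 2-exon gene whose end nearest to Arhgap21 lies 173 bases from it, had 28 and 49 reads, of which 23 and 41 were the annotated transcript Gm13375-201 of 854 nt. It is 1 of 5 antisense genes with no overlapping opposite-strand gene in the annotation, beside 2810001G20Rik, Gm4285, B230369F24Rik and Gm12279. The other four lay 16 to 581 bases from their nearest opposite gene.

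Rab10os, which overlaps the 3′ end of the vesicle traffic gene Rab10 (157 and 193 reads), had 42 reads in each library, 33 and 39 of them spliced. It had the most models of all, 16 in replicate 2 and 11 in replicate 1, and its best-read chain, 4 introns that are all annotated but without a full annotated transcript, held 11 reads in replicate 2 and 19 in replicate 1. A830082K12Rik, divergent to the cortical patterning gene Nr2f1, followed with 14 and 11 models. Then came 4933431E20Rik beside the glutathione transferase gene Gstm5 with 13 and 11, 2810468N07Rik beside the glial transcription factor gene Sox8 with 12 and 8, and Gm40578 with 12 and 8.

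Gt(ROSA)26Sor, the locus used for ubiquitous transgene expression in mice, had 33 reads in replicate 2 and 17 in replicate 1. Every one of its 25 and 14 spliced reads was an annotated transcript. A330009N23Rik had 31 and 18 reads, with 24 and 15 on annotated transcripts, Sp3os had 17 and 19, with 14 and 15 annotated, and Snhg9, a small nucleolar RNA host gene within the annotated interval of the ribosomal protein gene Rps2, had 7 and 15, all annotated. Tug1, a widely expressed non-coding RNA divergent to Morc2a, had 10 and 8 reads. Gm2415 (22 and 17) and Zbtb11os1 (11 and 10) were nearly all annotated as well but had single-exon transcripts.

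Unannotated intron chains numbered 262 in 75 genes. Of these, 187 had 1 read, 19 had 5 or more, and 50 occurred in both libraries. Beside the chains of Gm44151 and Rab10os, the best-read was a 2-intron chain of Gm13205 inside Casz1, with 18 reads in replicate 2 and 9 in replicate 1, of whose introns 1 is annotated. Chosen after its values were seen, the 1-intron chain of Gm45441 had 11 and 9 reads.

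Named antisense RNAs with a known setting were mostly low. In the list of 21 such symbols, 20 are in the annotation, 12 of them as antisense type, 14 of any type had a read, and 6 of antisense type had at least 10 reads. Over all 261 antisense genes that are in this list or whose symbol ends in an antisense suffix such as os or as, 108 had a read and 15 reached 10 reads. Pax6os1, Nespas and Uchl1os had 0 reads in both libraries, and Wt1os and Nkx2-2os had 1.

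Tsix had 15 reads in each library beside 29 reads of Xist in replicate 2 and 34 in replicate 1. Only 1 of the 30 Tsix reads was spliced, 0 lay on an annotated transcript, and 20 were single-exon reads on opposite exons only. Airn had 17 and 11 reads, of which 12 and 11 were single-exon reads on neither own nor opposite exons. Its opposite genes Igf2r and Mas1 had 7 and 13, and 15 and 17 reads.

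Dlx1as, opposite the interneuron transcription factor gene Dlx1, had 19 reads in replicate 2 and 25 in replicate 1, and 11 and 15 of those were the 2-exon transcript Dlx1as-202, which shares 335 nt with the opposite strand's exons. Dlx1 had 18 and 8 reads. Dlx6os1, also called Evf2 and known from interneuron development, had 4 and 7 reads beside 0 reads of Dlx6 in both libraries. Zeb2os had 3 and 7 reads, all spliced and annotated, beside 12 reads of Zeb2 in each library, and Emx2os had 5 in each beside 6 and 12 of the cortical gene Emx2. Counts of this size do not order these genes.

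Of the 164 genes, 159 overlapped at least 1 opposite-strand gene, and the best-read of these is called the partner. Partners were protein-coding in 155 cases. By layout 63 antisense genes lay inside the partner, 47 were divergent (overlapping at their starts), 37 convergent (overlapping at their ends) and 12 spanned the partner. In the divergent group, 25 started within 1000 bases of the partner's start. Spliced reads made up 40.9% of the reads of divergent genes, 19.4% of convergent and 19.7% of spanning genes, and inside genes had a lower share still, beside 82.4% for the 5 genes with no overlap.

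Antisense genes had fewer reads than the partner in 115 of 159 pairs, with a median ratio of 0.404 antisense reads per partner read. Divergent genes did so in 42 of 47 cases and convergent ones in 17 of 37. Genes are not compared per length here, and single-exon reads on the partner's exons count toward the antisense gene. With partners required to overlap in exons the count was 73 of 119.

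The highest ratio was that of Gm44151 to Cacng8, 277 reads over both libraries against 2. E130307A14Rik had 24 against 2 for Traf3ip2, Gm15337 had 284 against 24 for Arhgap26, Dlx6os1 had 11 against 1 for Gm27905, and Adap2os had 20 against 2 for Adap2, a ratio shared by Gm26782 and Gm16008, each with 10 against 1. The ratio is not defined for Gm40578 (26 reads), Gm10501 (17) and Gm11767 (10), whose partners had 0 reads. The partner with most reads was the synaptic vesicle gene Syp with 1008 reads in replicate 2 and 1267 in replicate 1, beside 8 and 3 reads of Gm14703. Next were Tecr, a fatty acid elongation gene (599 and 785, beside 34 and 9 of D830024N08Rik), and Jund, a transcription factor gene (691 and 668, beside 9 and 11 of Gm11175). The dendritic gene Ddn (389 and 385, beside 4 and 12 of B130046B21Rik) and the kinase gene Prkcz (193 and 240, beside 43 and 19 of Gm27200) completed the 5.

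**Figure D3:**
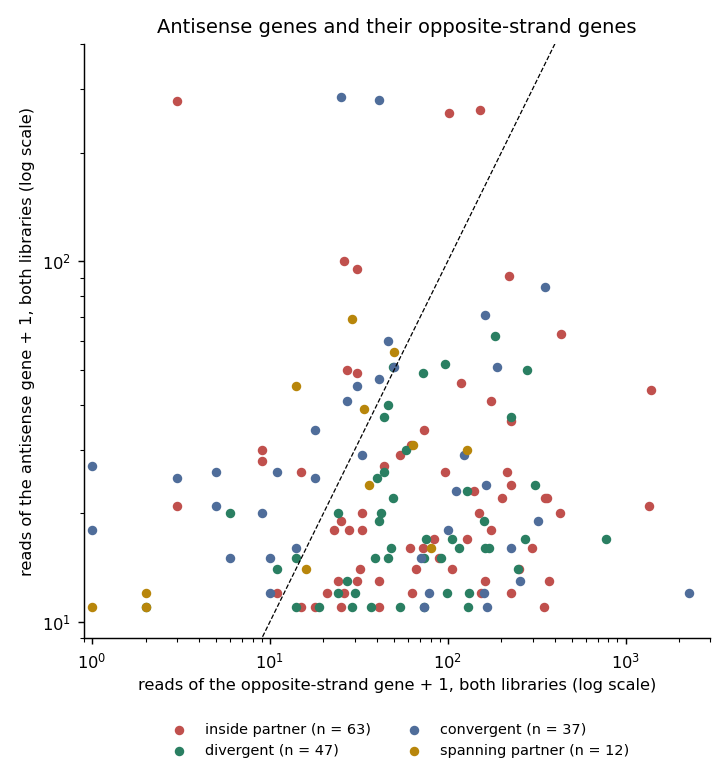
Reads of each antisense gene against reads of its opposite-strand partner, both summed over the libraries plus 1, on log axes, coloured by layout (159 pairs); the dashed line marks equal numbers. In 115 pairs the point lies right of the line, and 3 of the 5 antisense genes with most reads stand beside partners with 40 reads or fewer.

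Between the libraries the antisense genes were mostly higher in replicate 2. The level was higher in replicate 2 for 122 of 164 genes (74.4%), beside 5969 of all 11277 annotated genes with 10 or more reads (52.9%). Their median log2 ratio of replicate 2 over replicate 1, on CPM + 1, was 0.78, beside 0.03 for all genes. Their partners had a median of 0.07, over 140 partners with at least 10 reads. The excess was not particular to annotated antisense genes. Single-exon models of unannotated antisense loci, which enter no gene count, held 136192 reads in replicate 2 and 73846 in replicate 1. The ratio was not used to choose the genes. Of the 164 genes, however, 9 had 0 reads in replicate 1 and 1 had 0 in replicate 2. Those genes reached 10 reads through 1 library alone, and they are counted in these values.

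In an exact binomial test over 9143 annotated genes with at least 20 reads (two-sided, Benjamini-Hochberg adjusted over all of them, threshold 0.05), 72 antisense genes were tested and 16 were called, 15 higher and 1 lower in replicate 2. Over all genes tested 1.26% were called higher and 0.733% lower, 1.99% in either direction. That split of all called genes, 115 higher and 67 lower, was 97 and 89 with DESeq2 size factors and 77 and 248 with all mouse reads as the total, while the antisense genes stood at 15 and 1, and at 14 and 1. In either direction these are 2.03% and 3.55% of all genes tested. With genes of 10 or more reads tested, 22 of the 164 antisense genes were called, beside 1.68% of all genes, and with every gene tested 18 were called, beside 0.831%. Of the 126 partners tested, 4 were called, and 3 of these were higher in replicate 2. Counting error alone enters this test, and the spread between cortices was not measured.

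Among the called genes Gm44151 had 274 CPM in replicate 2 and 117 CPM in replicate 1, a log2 ratio of 1.21 ± 0.18 (counting SE, adjusted p = 6.37e-09, exact binomial test). Gm26724 followed with 221 and 138 CPM (log2 ratio 0.67 ± 0.18, adjusted p = 0.0176, exact binomial test). The other called genes held 21 to 62 reads in all. Gm43713, inside Gon4l, had 38 reads in replicate 2 and 11 in replicate 1, D830024N08Rik had 34 and 9, A530095I07Rik, inside Nsun2, had 23 and 2, and Gm42917 had 21 and 1. Gm27200 (43 and 19), AC061963.1 (36 and 14), Brip1os (33 and 11), AC140073.1 (30 and 10), Gm48512 (19 and 4) and 4930415C11Rik (18 and 3) were the rest of those with reads in both libraries.

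For 4 called genes 1 library had 0 reads. Gm17218 had 30 reads in replicate 2 and 0 in replicate 1, at least 11.4-fold higher against a floor of 3 counts in the library at 0. Gm44026 had 28 and 0 (at least 10.6-fold higher), and Pitpnm2os1 had 21 and 0 (at least 7.98-fold higher). Gm48350 had 0 reads in replicate 2 and 33 in replicate 1 and was at least 9.64-fold lower in replicate 2. These 4 genes reached 20 reads through 1 library alone, so their ratios are a description. Among genes with reads in both libraries, 12 of 68 tested antisense genes were called, beside 1.90% of all genes.

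The gene to which reads were given moved with some of these differences. Over the Gm48350 models, reads on the same strand but given to Pde8b numbered 25 in replicate 2 and 0 in replicate 1, and with them the log2 ratio was -0.21 with an adjusted p of 0.940 (exact binomial test). Over Pitpnm2os1, Gm42425 had 0 and 9 same-strand reads, and the ratio with them was 1.34 with an adjusted p of 0.252 (exact binomial test). In replicate 1, unannotated loci held 8 same-strand reads over Gm17218 and 6 over Gm44026, and these genes stayed called with those reads added. Their log2 ratios were then 2.00 for Gm17218 (adjusted p = 0.00666, exact binomial test) and 2.27 for Gm44026 (adjusted p = 0.00444, exact binomial test), against 5.50 for Gm17218 and 5.40 for Gm44026 without those reads. The count of called genes was then 15, of which 14 were shared, beside 1.96% of all genes.

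Read form moved with the library difference. Single-exon reads of the antisense genes stood at 3522 CPM in replicate 2 and 2018 CPM in replicate 1, a ratio of 1.75. All spliced reads together had a ratio of 1.27. Within these it was 1.06 for reads with an own intron and 1.88 for reads with neither an own nor an opposite-strand intron. The split by read form was thus not clean. The leading class of a gene was taken from its reads summed over the same 2 libraries. Groups by leading class are thus not independent of the ratios, and their values are a description. Of the 41 genes led by spliced reads with an own intron, 21 were higher in replicate 2, with a median log2 ratio of 0.02. Among them 0 of 18 tested were called, beside 1.99% of all genes tested. Of the 65 genes led by single-exon reads on own exons, 53 were higher (median 0.86). Among the 33 led by single-exon reads on neither own nor opposite exons, 30 were higher (median 1.20). Of the 20 genes led by single-exon reads on opposite exons only, 16 were higher (median 0.94), and 0 of 10 tested were called. Both the 0 of 18 and the 0 of 10 are near the share over all genes. Single-exon reads of lincRNA genes had a ratio of 1.49 and those of protein-coding genes 1.08. With multi-exon models alone, 1 of 19 tested antisense genes was called, beside 0.983% of all genes, and with annotated transcripts alone 0 of 11, beside 0.845%. With single-exon models alone, an alternative chosen after the data were seen, 13 of 52 were called, beside 6.04% of all genes with such models. The part of read form in the library difference was not tested.

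**Figure D4:**
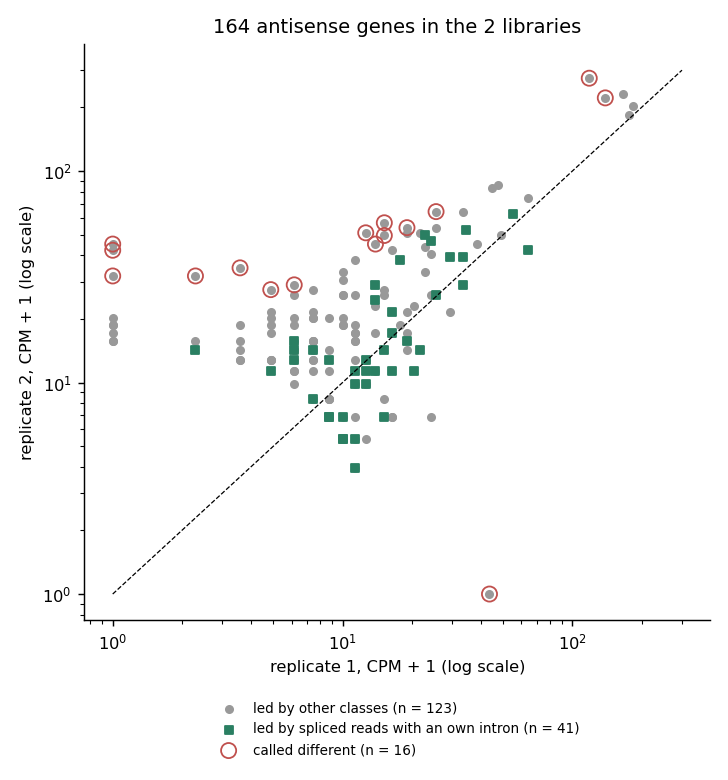
CPM + 1 of each of the 164 antisense genes in replicate 2 (vertical) and replicate 1 (horizontal), log axes; squares are the 41 genes led by spliced reads with an own intron, circles mark the 16 genes called different, and the dashed line marks equal levels. None of the squares is circled, and 15 of 16 circled genes lie above the line.

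**Figure D5:**
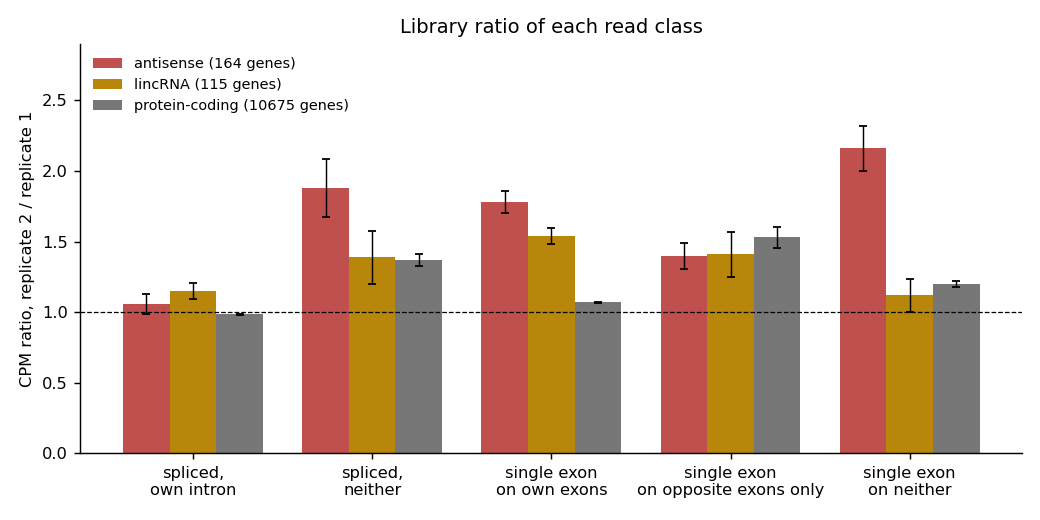
Ratio of the CPM in replicate 2 over replicate 1 by read class, for antisense, lincRNA and protein-coding genes with 10 or more reads; error bars are the counting SE and the dashed line is a ratio of 1. Antisense genes stand at 1.06 for spliced reads with an own intron and at 1.88 for spliced reads with neither. Their single-exon reads on neither own nor opposite exons stand at 2.16.

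By layout, 53 of the 63 genes inside a partner were higher in replicate 2 (median log2 ratio 1.06, 12 of 29 tested called higher). Of 47 divergent genes 31 were higher (median 0.37, 2 of 14 called higher). Of 37 convergent genes 26 were higher (median 0.47, 0 of 21 called higher and 1 lower). Of the 12 genes spanning a partner 10 were higher (median 1.08, 1 of 7 called higher), so the inside genes did not stand alone. Of the 5 genes with no overlap 2 were higher (median -0.16). Over all genes tested, 1.26% were called higher and 0.733% lower, so the 0 of 21 is near that share. The higher calls include Gm17218, Gm44026 and Pitpnm2os1, which had 0 reads in replicate 1. The lower call is Gm48350, which had 0 reads in replicate 2. These genes reached the reads required for the test through 1 library alone. The direction of their calls was thus fixed, and the counts of called genes by layout are a description.

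The strand balance of a locus was compared as the antisense share of the reads of an antisense gene and its partner. Fisher's exact test (two-sided, adjusted over 846 opposite-strand pairs of any type with at least 20 reads on each gene) called 34 pairs, 4.02% of them. The antisense genes entered 61 of these pairs, which 58 of them formed with an overlapping opposite-strand gene, 3 of them in 2 pairs each. The test called 10 of the 61, all with the higher antisense share in replicate 2, and the share was higher there in 49 of 61. At the Tecr locus D830024N08Rik held 5.37% of the reads in replicate 2 and 1.13% in replicate 1 (adjusted p = 2.59e-04, Fisher's exact test). Beside Nsun2, A530095I07Rik held 20.9% and 1.56%, and beside the neurotrophin receptor gene Ntrk2, 4930415C11Rik held 9.38% and 1.57%. Gm29417, which was not called by level, had 56 reads beside 93 of Cxxc5 in replicate 2 and 34 beside 128 in replicate 1 (adjusted p = 0.0445, Fisher's exact test). The other called pairs were those of Gm17218, Gm44026, Pitpnm2os1, Gm42917, Gm27200 and Gm48512. Of these, Gm17218, Gm44026 and Pitpnm2os1 had 0 reads in replicate 1 and reached 20 reads through replicate 2 alone. A higher share in replicate 2 was thus fixed for them, and their calls are a description. Same-strand reads given to other loci were not added in this test. With partners overlapping in exons 1 of 40 pairs was called, beside 0.451% of all such pairs. With 10 or more reads on each gene 15 of 162 were called, beside 3.67%, and with annotated transcripts alone 0 of 9, beside 0.271%.

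Within genes, the share of the major transcript could be compared for 16 antisense genes with at least 20 reads in each library. Fisher's exact test called 0 of them, with 0 at an unadjusted p under 0.05, against 0.164% of 6116 genes. In 12 of the 16 the major form was the pool of unannotated single-exon models. For several of these, such as Gm26724 and Gm43126, the pool was every read in both libraries. Their share was then 100% by the pooling, so the test could not call them. Different single-exon models within a pool were not compared. Gm13375-201 held 82.1% of its gene's reads in replicate 2 and 83.7% in replicate 1, the leading chain of Gm44151 78.5% and 69.2%, and that of Rab10os 26.2% and 45.2% (unadjusted p = 0.110, Fisher's exact test). Shares of genes with few reads have wide errors, so equal shares are not shown.

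RefSeq promoter windows (GRCm38.p6, 250 bases before to 50 after a transcript start) were found for 64 of the 164 genes, with 89 windows. The windows of A330009N23Rik, A830082K12Rik and 4933431E20Rik are shown because these genes are divergent, read as spliced transcripts and start in RefSeq at the GENCODE start. Capitals mark GGGCGG on either strand (the GC box bound by Sp factors).
A330009N23Rik, chr15:101225137-101225436, minus strand: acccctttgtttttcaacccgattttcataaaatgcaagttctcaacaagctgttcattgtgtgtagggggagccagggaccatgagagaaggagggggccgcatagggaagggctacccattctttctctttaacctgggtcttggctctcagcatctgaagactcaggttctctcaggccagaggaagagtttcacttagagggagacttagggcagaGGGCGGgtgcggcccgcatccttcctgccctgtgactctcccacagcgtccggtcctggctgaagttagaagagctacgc
A830082K12Rik, chr13:78197767-78198066, plus strand: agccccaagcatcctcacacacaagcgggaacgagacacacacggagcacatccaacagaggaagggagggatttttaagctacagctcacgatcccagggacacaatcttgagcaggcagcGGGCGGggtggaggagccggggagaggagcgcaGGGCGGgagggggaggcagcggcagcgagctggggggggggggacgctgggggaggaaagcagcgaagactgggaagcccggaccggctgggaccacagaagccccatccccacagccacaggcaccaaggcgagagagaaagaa
4933431E20Rik, chr3:107896164-107896463, minus strand: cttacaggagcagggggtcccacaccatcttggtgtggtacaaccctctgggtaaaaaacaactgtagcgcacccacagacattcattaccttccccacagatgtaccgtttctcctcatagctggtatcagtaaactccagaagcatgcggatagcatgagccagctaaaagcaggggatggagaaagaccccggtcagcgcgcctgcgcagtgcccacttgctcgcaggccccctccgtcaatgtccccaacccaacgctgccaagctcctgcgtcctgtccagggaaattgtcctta
The window of 4933431E20Rik holds no GGGCGG. Some RefSeq starts lie far from the GENCODE start of the gene, such as 144556 bases for 1600010M07Rik and 113869 for Gm16599. Some genes also have more than 1 window, and these can overlap, as for Gm13269. Of the 89 windows, 40 (44.9%) held GGGCGG on either strand, beside 35.7% of all 32851 RefSeq windows. TATAAA on either strand was in 12.4% beside 13.6%, and CCAAT on either strand in 27.0% beside 37.4%. The GC content had a median of 55.3% beside 52.7%. A match describes these letters only.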

How the data were processed

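For each library the authors deposited whole-number counts of long reads for every transcript model, and a GTF with the exons of each model. Per the file headers each table holds 1 library, and per the deposited notes the build is mm10 with GENCODE M21. TALON is named in the annotation. No source used here gives the aligner, its settings or the strand handling. Gene counts are sums over all models of an annotated gene, spike-in models left out. Partners, exons and introns come from GENCODE M21. No genome was used, so bases were read from annotated transcripts. Tests were the exact binomial test and Fisher's exact test (scipy 1.17.1), adjusted by Benjamini-Hochberg, and both were tested on simulated data. TMM factors came from edgeR 4.0.16 and size factors from DESeq2 1.42.0, as alternatives. The members, lists and tests were chosen with earlier results of these data known. Named genes were the 15 with most reads, the called genes, the 5 extremes of partner ratio, partner reads and model number, the 3 best-read unannotated chains, and members of a list of known antisense RNAs, of which not every one is printed. Genes outside this rule, such as Tug1 and Snhg9, are further examples chosen after their values were seen.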

Additional observations from a re-analysis of the deposited data

Results flagged for a closer look

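Unannotated loci, which enter no gene count, held reads on the strand of an antisense gene and over its models, at a level above what a count of 0 allows. These were 8 reads over Gm17218, 6 over Gm44026, 7 over Gm11175, 7 over Gm11767 and 4 over Gm14540, all in replicate 1, and 7 over 1600010M07Rik in replicate 2. Gm17218, Gm44026 and Gm14540 had 0 reads of their own in replicate 1. The part of these reads in the library difference was measured for Gm17218 and Gm44026, which were still called with them added, at log2 ratios of 2.00 for Gm17218 and 2.27 for Gm44026, against 5.50 and 5.40 without them.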

How the results depend on the processing

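The count of antisense genes called between the libraries was 16 of 72 with TMM scaling (1.99% of all genes tested). It was also 16 with DESeq2 size factors (2.03%) and with a pseudocount of 0.1 CPM (1.99%). All mouse reads as the total gave 15 of 72 (3.55%). With genes of 10 or more reads tested 22 of 164 were called (1.68%), and with all genes tested 18 of 164 (0.831%). Reads of annotated transcripts alone gave 0 of 11 (0.845% of all genes) and multi-exon models alone 1 of 19 (0.983%). Chosen after the data were seen, same-strand reads over the footprint gave 15 of 74 (1.96% of all genes) and single-exon models alone 13 of 52 (6.04%). All mouse reads as the total moved the median log2 ratio of all genes to -0.11 and that of the tested antisense genes to 0.70. Called pairs numbered 15 of 162 with 10 or more reads on each gene (3.67% of all pairs) and 1 of 40 with partners overlapping in exons (0.451%). Annotated transcripts gave 0 of 9 (0.271%). With multi-exon models 0 of 13 were called and 0 of all 611 pairs, so that 0 says nothing particular to antisense genes. With 10 or more reads in each library, major transcripts were called in 0 of 48 antisense genes, beside 11 of 8498 genes. With annotated transcripts alone this was 0 of 1, beside 1 of 4182. A test of 1 gene decides nothing here, and the pool of single-exon models also entered the first alternative. The summed level of 3630 CPM ran from 2776 to 4484 CPM with 1 library left out and was 468 CPM for annotated transcripts, of which 77.7% were spliced. The spliced share ran from 21.4% to 27.3% and the unannotated share from 83.7% to 89.2% with 1 library left out. Genes with fewer reads than the partner numbered 107 to 121 with 1 library left out, 73 with partners overlapping in exons (119 pairs), 120 with annotated transcripts and 138 with multi-exon models. A threshold of 5 reads gave 327 antisense genes and one of 20 reads gave 72. Causes were not tested. No paired analysis was possible because there is 1 group. Splice site dinucleotides were not analysed here.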
